A study of Homo sapiens with 6 samples.

Results

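The lysosomal group described here holds 45 genes, taken by name from a table of 57819 genes. It consists of GLB1, the gene of acid beta-galactosidase, 11 other glycosidases, 5 sulfatases, 13 cathepsins and other proteases, 6 lipid hydrolases and their activators, 6 membrane proteins and the 3 TFEB-family transcription factors. The cells were IMR90, a human fetal lung fibroblast line, with the ER:Ras construct, an oncogenic Ras fused to an estrogen receptor domain that 4-hydroxytamoxifen (4OHT) switches on. All 6 libraries came from cells given 200 nM 4OHT for 3 days, which the series describes as senescent. In 3 libraries the cells carried a scrambled siRNA (siSCR, the controls) and in 3 an siRNA that depletes the long noncoding RNA sin-lncRNA (the knockdowns), so the comparison is between 2 senescent states and no cells without 4OHT enter it. The deposited knockdown columns are named si1.3 where the labels have si1; what the added ending stands for is not given in the sources used here. The labels do not say whether the replicates were separate cultures, so the p-values measure the spread between these libraries, which may be technical.

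Lysosomes are acidic organelles in which hydrolases break down sugars, sulfated chains, lipids and proteins. Most of these enzymes receive a mannose 6-phosphate tag in the Golgi and travel on mannose 6-phosphate receptors, and a proton pump, the V-ATPase, keeps the organelle acid. TFEB, TFE3 and MITF are transcription factors that bind E-box-like words near lysosomal genes and enter the nucleus when mTORC1 is less active. The beta-galactosidase stain used to mark senescent cells is due to the enzyme that GLB1 encodes.

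The libraries held 22117324 to 50913672 reads in genes, with less depth in the knockdowns (22117324 to 27882280) than in the controls (30271192 to 50913672). Levels are given as RPM, reads scaled to a library of 1000000. The targeted sin-lncRNA was at 4.17 ± 0.519 RPM in the controls and 0.556 ± 0.076 in the knockdowns (SD, n = 3 each), in the direction of the labels. All 14 fibroblast markers examined were measured, and 6 were called higher and 5 lower in the knockdowns, where 41.0% of all genes tested were called in either direction, with a median log2 fold change of 0.24 over the markers. Their summed level was 19741 to 22793 RPM in the controls and 16848 to 19061 in the knockdowns, and COL1A1 (6617 to 3599 RPM) and COL1A2 (3695 to 2167 RPM) together fell by more than the sum did. Of 10 macrophage markers 1 passed the filter on low counts, and their sum was 1.23 to 1.66 RPM in the controls and 0.493 to 1.78 in the knockdowns, with MARCO at 0 in all libraries. In bulk RNA, fewer cells of a type and less RNA per cell cannot be told apart.

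Some libraries stood apart by GC content. Across 18546 genes, the deviation of a library from its group mean rose with GC content in control replicate 1 (Spearman's rho 0.349) and knockdown replicate 2 (0.277) and fell with it in control replicate 2 (rho -0.309) and knockdown replicate 1 (-0.361). Control replicate 3 (-0.0311) and knockdown replicate 3 (0.126) were nearer to 0. These are descriptions across genes, which are not independent replicates. The values after removal of the GC and length trend are given where they change a call.

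Lysosomal genes were more often higher than lower in the knockdowns. Of the 44 members that passed the filter of a mean of 10 normalized reads, 22 (50.0%) were called higher and 7 (15.9%) lower at a Benjamini-Hochberg adjusted p under 0.05 in limma, and 15 were not called. Over all 19048 genes tested, 17.5% were called higher, 23.5% lower and 41.0% in either direction. Protein-coding genes, a closer background, were called higher in 22.2% and lower in 26.4% of 13002. The median log2 fold change was 0.17 over the members and -0.04 over all genes tested. In 22 members the lowest knockdown exceeded the highest control and in 6 the reverse held, against 22.6% and 28.5% of all genes tested (51.1% in either direction). The changes were modest in size, with a median absolute log2 fold change of 0.32 among the 29 called members and 0.39 among all called genes. Of the called members 9 changed by more than 0.5 on the log2 scale, and all 9 of them were higher. The share and direction of all genes past this size were not counted, so this count has no background beside it. Of the 29 calls, 21 held in each of 18 other fits, and the members that lost theirs are named below.

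**Figure D1:**
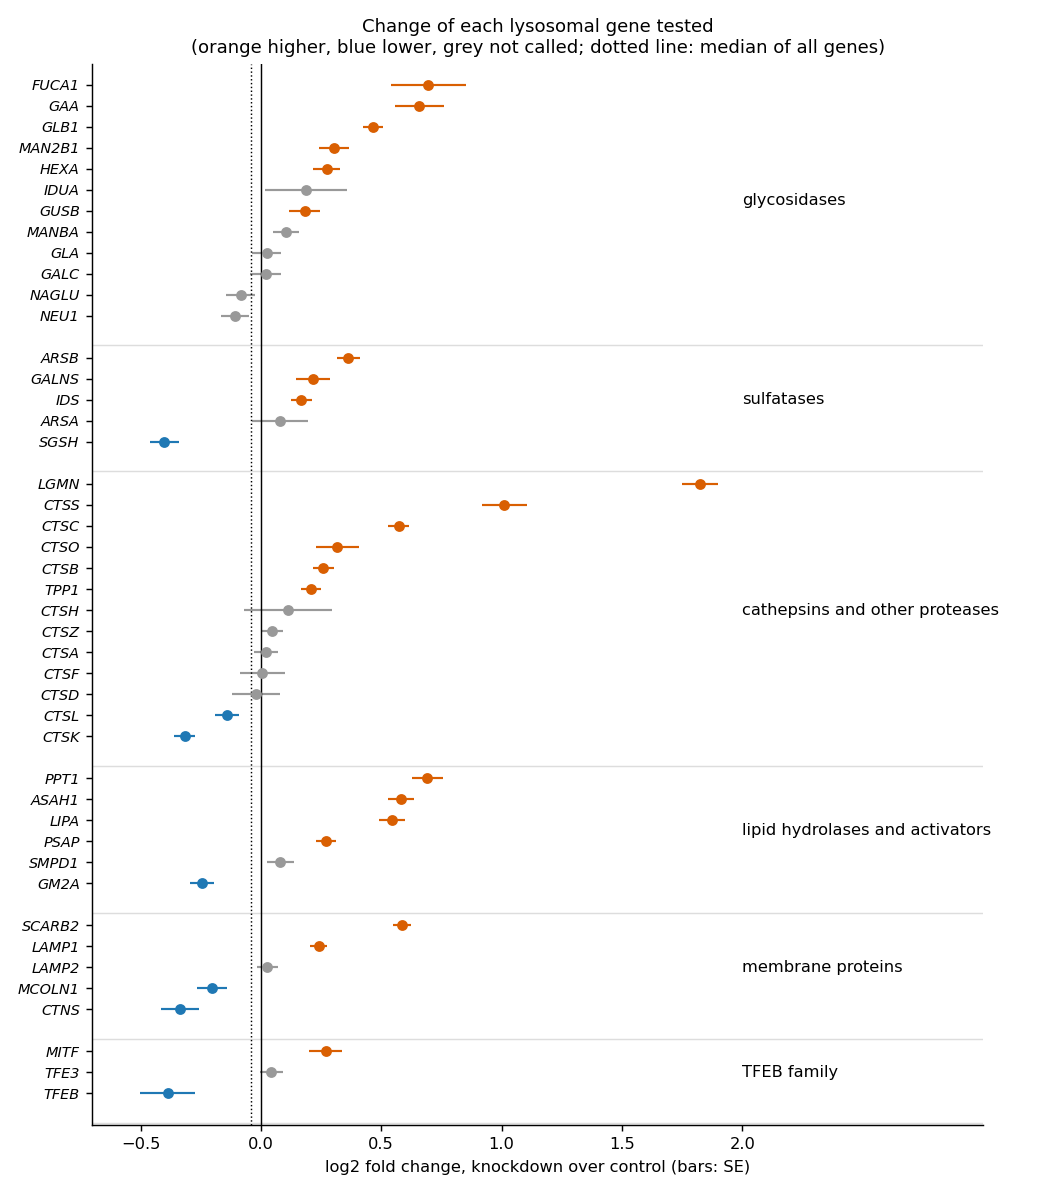
log2 fold change (knockdown over control) with its standard error for each of the 44 members tested, 3 libraries a group, grouped by role. Orange points were called higher, blue lower and grey not called, and the dotted line is the median of all genes tested, -0.04. LGMN, at 1.82, lies farthest to the right and SGSH, at -0.40, farthest to the left.

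GLB1 (ENSG00000170266.11, hg19 chr3:33038100-33138722, minus strand) was higher in every knockdown library. Its level was 89.0, 89.5 and 85.5 RPM in control replicates 1 to 3 and 124, 121 and 119 RPM in knockdown replicates 1 to 3. The groups did not overlap, and the libraries of each group lay close together, on 2689 to 4305 reads each. The mean rose 1.38-fold, from 88.0 ± 2.18 to 122 ± 2.48 RPM (SD, n = 3 each), a log2 fold change of 0.47 with a standard error of 0.04 and an adjusted p of 1.3e-05 in limma. The exact two-sided permutation test over the 6 libraries gave p = 0.1, the smallest that 20 assignments allow. Over the 18 other fits the log2 fold change was 0.45 to 0.50, with the call kept in each. TMPPE, a gene on the same strand within the GLB1 span, was at 2.46 RPM in the controls and 2.57 in the knockdowns, and the pseudogene SEC13P1 on the other strand was at 10.4 and 8.69. The data are on RNA and hold no measure of enzyme activity or of the stain.

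The 3 transcription factors of the TFEB family gave 3 different results. TFEB (hg19 chr6:41651716-41703997), the family's best-known regulator of lysosomal genes, was at 7.25, 5.79 and 6.34 RPM in the controls and 4.44, 5.21 and 5.13 RPM in the knockdowns. All knockdowns were below all controls, and the log2 fold change was -0.39 (SE 0.11, adjusted p = 0.019 in limma), on 99 to 319 reads. It missed the threshold when control replicate 1 (-0.30, adjusted p = 0.069 in limma), control replicate 3 (-0.40, 0.056) or knockdown replicate 1 (-0.31, 0.066) was left out, and with the replicate number as a block (-0.39, 0.055). MITF (chr3:69788586-70017488), the factor known from pigment cells, was at 13.04, 12.8 and 12.2 RPM in the controls and 15.2, 15.8 and 14.7 in the knockdowns. It was higher in every knockdown, by 0.27 on the log2 scale (SE 0.07, adjusted p = 0.0093 in limma), and missed the threshold without control replicate 3 (0.24, 0.052) and after removal of the GC and length trend (0.17, 0.055). TFE3 (chrX:48886242-48901012) was at 153, 148 and 152 RPM in the controls and 147, 163 and 157 in the knockdowns, so the groups overlapped (log2 fold change 0.04, SE 0.05, adjusted p = 0.50 in limma). Per exon length, TFE3 was the most abundant of the family, at 35.2 RPKM (RPM per 1000 bases of exon) in the controls against 1.14 for TFEB.

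Promoter windows from RefSeq (GRCh38.p14, 250 bases before to 50 after each start site) were matched by symbol for 32 of the 45 members, in 45 windows. They were searched on both strands for CACGTG and for the longer words TCACGTG, TCACGTGA and GTCACGTGAC, each of which contains the one before it and which resemble the E-box-like word of the TFEB family. TCACGTG occurred in the windows of 10 of these 32 members (31.2%), namely ARSB, CLN3, CTSA, CTSD, CTSF, GAA, GALNS, LAMP1, MCOLN1 and NEU1, and in 3.71% of all 35116 windows. The shorter CACGTG occurred in the same 10 members and in 7.26% of all windows. The full palindrome GTCACGTGAC occurred in GAA, GALNS and MCOLN1 (9.38%) and in 0.353% of all windows. The member shares count a gene once if any of its windows held the word, while the shares of all windows count each window. A gene with several windows has more places to hold the word, so the member and window shares are in unlike units. No window of GLB1 held CACGTG. The stretches below are shown because they carry the palindrome or repeat the word most often; they lie wholly before the start site, read 5′ to 3′ on the gene's strand, with TCACGTG and its extensions in capitals.
GAA, chr17:80101478-80101580, plus strand: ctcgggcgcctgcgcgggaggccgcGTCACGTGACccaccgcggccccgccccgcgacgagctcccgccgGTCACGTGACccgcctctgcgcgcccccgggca
GALNS, chr16:88857089-88857148, minus strand: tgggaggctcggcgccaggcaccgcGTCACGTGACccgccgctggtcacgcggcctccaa
MCOLN1, chr19:7522557-7522623, plus strand: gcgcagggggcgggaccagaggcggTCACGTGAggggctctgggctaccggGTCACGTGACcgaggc
LAMP1, chr13:113297021-113297127, plus strand: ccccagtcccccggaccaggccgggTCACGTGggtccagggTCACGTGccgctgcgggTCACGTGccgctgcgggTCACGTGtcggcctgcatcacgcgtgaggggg

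Of these 4 genes GAA, GALNS and LAMP1 were called higher and MCOLN1 lower. Among the members with TCACGTG, 9 were tested, of which 4 were called higher, 1 lower and 4 not called, with a median log2 fold change of 0.02. Among the 22 matched members without it, 11 were called higher, 4 lower and 7 not called, with a median of 0.17. These counts changed after removal of the GC and length trend. Of the members with the word, CTSA (0.13) and CTSD (0.15) were then also called higher, and MCOLN1 (-0.06) was no longer called. Of those without it, IDUA, SMPD1, CTSZ and TFE3 were then also called higher, and IDS, CTSL and MITF were no longer called. The medians of 0.02 and 0.17 are from the deposited values. In order, the members with the word were then GAA (0.79), ARSB (0.31), GALNS (0.26), LAMP1 (0.22), CTSD, CTSF (0.14), CTSA, MCOLN1 and NEU1 (-0.12), with CTSD in the middle. GC content was above the members' median of 52.1% in all of them except ARSB, LAMP1 and NEU1. A median after that removal was not computed for the members without the word. The difference between these sets was not tested. A match describes letters in the window and is no measure of binding.

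Glycosidases, which remove sugars from glycolipids, glycoproteins and polysaccharides, were called higher in 6 of 12 members and lower in 0, with a median log2 fold change of 0.18. For this and the other roles below, the shares over all genes tested were 17.5% higher and 23.5% lower. Over protein-coding genes they were 22.2% and 26.4%. Differences between roles were not tested. GAA (hg19 chr17:78075355-78093678), the acid alpha-glucosidase that degrades glycogen, was at 59.0, 47.4 and 54.0 RPM in the controls and 71.5, 94.8 and 87.6 RPM in the knockdowns. Every knockdown was above every control although the spread within each group was wide, and the mean rose 1.58-fold (log2 fold change 0.66, SE 0.10, adjusted p = 0.00045 in limma). FUCA1 (chr1:24171567-24194784), which removes fucose, was low, at 1.82, 1.43 and 1.65 RPM in the controls and 2.33, 2.90 and 2.71 in the knockdowns. It rose 1.62-fold (0.70, SE 0.16, adjusted p = 0.0045 in limma) on only 43 to 83 reads a library, with no overlap of the groups.

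Smaller rises were called for MAN2B1, an alpha-mannosidase (47.3 ± 2.89 to 58.4 ± 3.53 RPM, SD, n = 3 each, log2 fold change 0.31), and for HEXA, the alpha chain of beta-hexosaminidase (39.7 ± 1.80 to 48.0 ± 2.10, 0.27). GUSB, the beta-glucuronidase, rose from 22.9 ± 1.12 to 26.02 ± 1.38 RPM (log2 fold change 0.18, adjusted p = 0.043 in limma). GUSB missed the threshold in 9 of the 18 other fits, among them those without control replicate 1, 2 or 3 or knockdown replicate 2 or 3, at log2 fold changes of 0.14 to 0.22. The other 6 glycosidases were not called. GLA, the alpha-galactosidase, was at 41.3 ± 2.82 and 41.9 ± 1.08 RPM, and GALC, the galactosylceramidase, at 22.5 ± 1.10 and 22.9 ± 1.05. MANBA, the beta-mannosidase, had no overlap between groups (45.9 ± 1.54 and 49.3 ± 2.09 RPM) but an adjusted p of 0.14 in limma, and with quantile normalization it was called higher (log2 fold change 0.15, adjusted p = 0.046). NEU1, the sialidase, was at 94.7 ± 6.52 and 87.8 ± 3.36 RPM, and without control replicate 1 it was called lower (log2 fold change -0.16, adjusted p = 0.034 in limma). IDUA, the alpha-iduronidase, ranged from 6.63 to 10.4 RPM in the controls and from 7.57 to 11.3 in the knockdowns, and NAGLU from 47.4 to 52.5 and from 44.6 to 50.5.

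Sulfatases were called higher in 3 of 5 members and lower in 1. ARSB, which acts on dermatan and chondroitin sulfate, rose from 67.0 ± 1.95 to 86.2 ± 2.54 RPM (SD, n = 3 each, log2 fold change 0.36, SE 0.05, adjusted p = 0.00013 in limma). IDS, the iduronate sulfatase, was 153 ± 1.31 RPM in the controls and 172 ± 8.03 in the knockdowns (0.17, SE 0.04, adjusted p = 0.012 in limma). It was not called without control replicate 3 (0.16, 0.054), after removal of the GC and length trend (0.06, 0.27) or with the eBayes fit untrended. A second row named IDS (ENSG00000241489.3), within the same span, had 6 to 25 reads a library. It was also called higher, without overlap of the groups (log2 fold change 1.04, SE 0.35, adjusted p = 0.035 in limma). GALNS, which acts on keratan sulfate, was 60.6 ± 4.30 and 70.5 ± 6.29 RPM (0.22, SE 0.07, adjusted p = 0.033 in limma), with knockdown replicate 1, at 64.3 RPM, below control replicate 1, at 64.5. It missed the threshold when control replicate 2 (0.16, 0.094), control replicate 3 (0.23, 0.076), knockdown replicate 2 (0.15, 0.13) or knockdown replicate 3 (0.22, 0.088) was left out. The call was also lost with the replicate block (0.22, 0.093) and with the eBayes fit untrended (0.22, 0.11). TRAPPC2L, which overlaps GALNS on the other strand, was at 42.6 RPM in the controls and 29.97 in the knockdowns.

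SGSH (hg19 chr17:78180515-78194722), the sulfamidase of heparan sulfate breakdown, had the largest fall of the members. It was at 47.3, 42.6 and 48.9 RPM in the controls and 33.9, 35.6 and 35.4 RPM in the knockdowns, with every knockdown below every control. The log2 fold change was -0.40 (SE 0.06, adjusted p = 0.00042 in limma), and the call held in all 18 other fits. SLC26A11, which overlaps SGSH on the other strand, was at 15.5 RPM in the controls and 13.2 in the knockdowns. ARSA, the arylsulfatase of sulfatide breakdown, was not called (23.0 ± 2.85 and 24.4 ± 3.76 RPM).

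Among the proteases 6 of 13 were called higher and 2 lower, and the members moved far apart. LGMN (hg19 chr14:93170152-93215047, minus strand), encoding legumain, the asparaginyl endopeptidase that also processes cathepsins, was at 5.29, 5.69 and 5.70 RPM in the controls and 19.2, 19.3 and 20.6 RPM in the knockdowns. Libraries of each group lay close together, and the groups were far apart. The mean rose 3.54-fold, from 5.56 ± 0.238 to 19.7 ± 0.767 RPM (SD, n = 3 each), or 1.82 on the log2 scale (SE 0.08, adjusted p = 7.1e-08 in limma), on 171 to 578 reads a library. By log2 fold change this was rank 45 of all rises among the genes tested. CTSS (chr1:150702672-150738433), cathepsin S, a cysteine protease best known from antigen-presenting cells, was at 5.08, 5.99 and 5.72 RPM in the controls and 11.2, 11.9 and 10.8 in the knockdowns. It rose 2.01-fold without overlap (1.01, SE 0.09, adjusted p = 1.2e-05 in limma). The macrophage markers together reached at most 1.78 RPM in any library, and which cells the CTSS reads came from was not tested. Both genes stayed low per exon length, at 1.43 RPKM for LGMN and 1.32 for CTSS in the controls and 5.05 and 2.67 in the knockdowns.

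CTSC (hg19 chr11:88026760-88070955), the dipeptidyl peptidase that activates serine proteases, was at 147, 139 and 149 RPM in the controls and 208, 219 and 219 in the knockdowns. The groups did not overlap, and it rose 1.49-fold (log2 fold change 0.57, SE 0.04, adjusted p = 3.9e-06 in limma). CTSB, cathepsin B, the member with the most reads, was at 2308, 2341 and 2255 RPM in the controls and 2657, 2822 and 2789 in the knockdowns, a change of 0.26 on the log2 scale (SE 0.04, adjusted p = 0.00063 in limma). TPP1, a tripeptidyl peptidase, rose from 183 ± 4.21 to 212 ± 5.81 RPM (SD, n = 3 each, 0.21). CTSO rose from 9.40 ± 0.438 to 11.7 ± 1.21 RPM (0.32, adjusted p = 0.015 in limma), and missed the threshold without control replicate 3 (0.30, 0.060) or knockdown replicate 3 (0.24, 0.068).

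CTSK (hg19 chr1:150768684-150780799), cathepsin K, the collagen-degrading enzyme of osteoclasts and fibroblasts, was at 68.1, 66.7 and 65.3 RPM in the controls and 53.8, 52.7 and 54.1 RPM in the knockdowns. The groups lay apart with little spread in either, and the log2 fold change was -0.32 (SE 0.05, adjusted p = 0.00027 in limma). CTSK and CTSS, which moved in opposite directions, lie near each other on chromosome 1. CTSL (chr9:90340434-90346308), cathepsin L, was at 239, 266 and 267 RPM in the controls and 231, 229.6 and 239.6 in the knockdowns. Knockdown replicate 3 reached the level of control replicate 1, and the call (log2 fold change -0.14, adjusted p = 0.042 in limma) was lost in 13 of the 18 other fits, among them those without control replicate 2 (-0.12, 0.11) or 3 (-0.11, 0.17) or any 1 knockdown library (-0.13 to -0.16). After removal of the GC and length trend CTSL was at -0.09 (adjusted p = 0.16 in limma). The other 5 proteases were not called. CTSD, the aspartic protease cathepsin D, was at 179, 144 and 178 RPM in the controls and 145, 189 and 161 in the knockdowns, so that its spread within groups exceeded the difference of their means. After removal of the GC and length trend CTSD was called higher (0.15, adjusted p = 0.023 in limma). CTSA, the carboxypeptidase that protects GLB1 and NEU1, was at 238 ± 11.8 and 242 ± 9.65 RPM, CTSZ at 76.3 ± 0.787 and 78.9 ± 3.21, CTSF at 9.40 ± 0.847 and 9.42 ± 0.664, and CTSH at 1.21 ± 0.0874 and 1.31 ± 0.194.

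**Figure D2:**
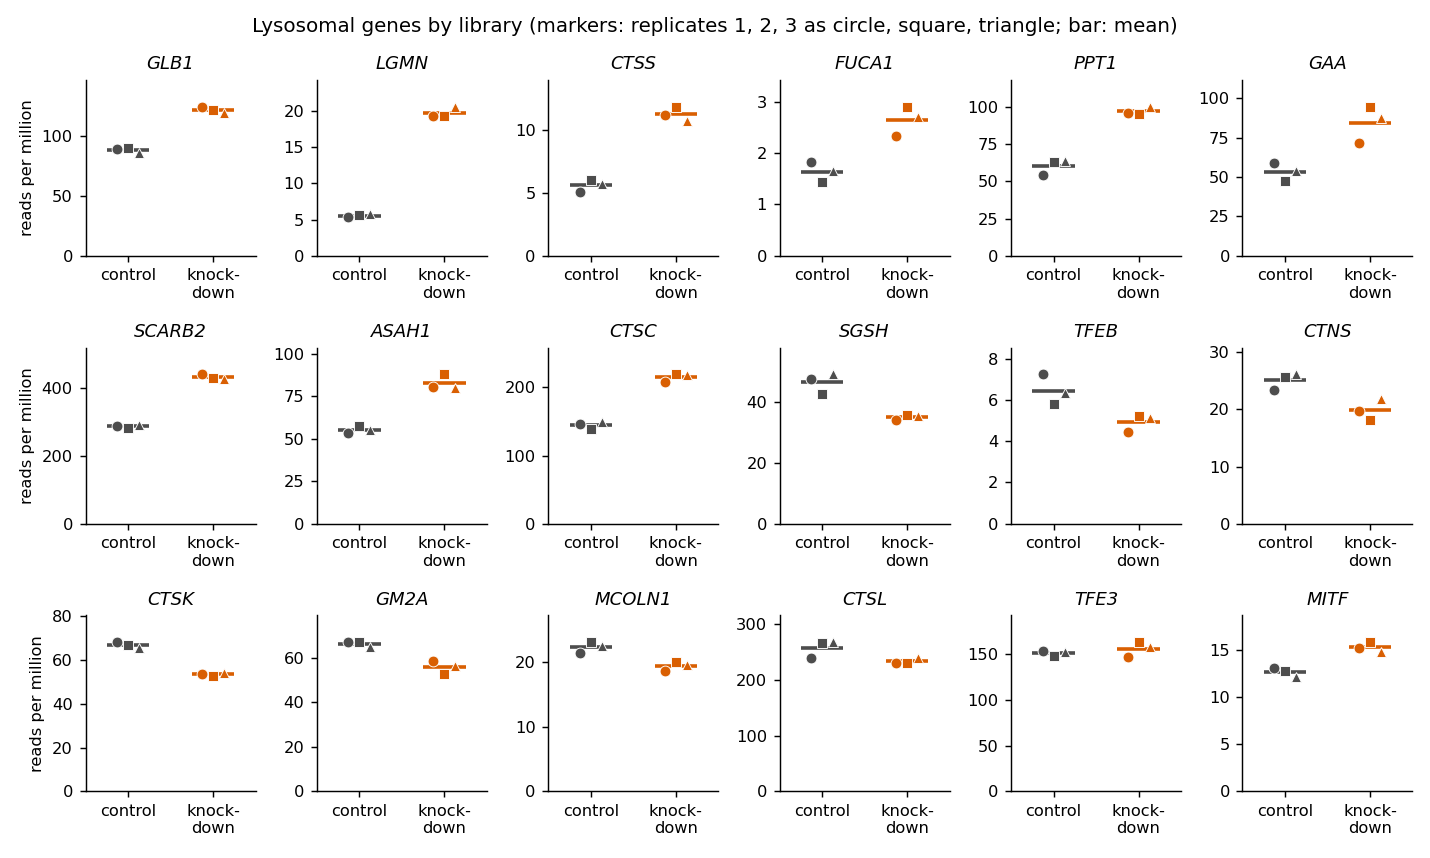
Level in RPM in each control (grey) and knockdown (orange) library for GLB1, the TFEB family and the members with the largest called rises and falls, on linear axes from 0. Circles, squares and triangles are replicates 1, 2 and 3 and bars are means. The groups overlap for CTSL and TFE3 and for no other gene drawn.

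Lipid hydrolases and their activator proteins were called higher in 4 of 6 members and lower in 1, with the highest median of the 6 roles, 0.41. PPT1 (hg19 chr1:40538379-40563375), the palmitoyl-protein thioesterase, was at 54.0, 62.8 and 63.8 RPM in the controls and 95.7, 95.4 and 100.1 in the knockdowns. Its groups lay far apart, and it rose 1.61-fold (log2 fold change 0.69, SE 0.06, adjusted p = 1.3e-05 in limma). ASAH1 (chr8:17913934-17942494), the acid ceramidase, was at 53.2, 57.2 and 55.2 RPM in the controls and 80.5, 87.8 and 79.5 in the knockdowns. It rose 1.496-fold without overlap (0.58, SE 0.05, adjusted p = 1.3e-05 in limma). LIPA, the acid lipase that frees cholesterol from its esters, rose from 56.9 ± 3.00 to 82.9 ± 3.58 RPM (SD, n = 3 each, 0.54, SE 0.05, adjusted p = 2.4e-05 in limma). IFIT3, whose listed span overlaps that of LIPA, was at 8.43 RPM in the controls and 14.4 in the knockdowns.

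PSAP, the precursor of the saposins, which present sphingolipids to their hydrolases, was at 1093, 1141 and 1097 RPM in the controls and 1308, 1384 and 1328 in the knockdowns. It rose 1.21-fold (log2 fold change 0.27, SE 0.04, adjusted p = 0.00039 in limma). GM2A (hg19 chr5:150591711-150650001), the activator that beta-hexosaminidase needs for GM2 ganglioside, was at 66.9, 67.1 and 64.9 RPM in the controls and 58.6, 53.0 and 56.3 in the knockdowns. It fell in every knockdown, with a change of -0.25 on the log2 scale (SE 0.05, adjusted p = 0.003 in limma), while HEXA, the chain it assists, rose. SMPD1, the acid sphingomyelinase, was not called (115 ± 3.54 and 122 ± 8.27 RPM).

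The membrane proteins were called higher in 2 of the 5 tested and lower in 2. SCARB2 (hg19 chr4:77079890-77135046), LIMP-2, the receptor that carries glucocerebrosidase to the lysosome, was at 286, 283 and 292 RPM in the controls and 439, 427 and 426 in the knockdowns. It rose 1.501-fold (log2 fold change 0.59, SE 0.04, adjusted p = 1.1e-06 in limma), with each group within a narrow range. LAMP1, a main glycoprotein of the lysosomal membrane, rose from 337 ± 5.01 to 397 ± 3.04 RPM (SD, n = 3 each, 0.24), whereas LAMP2 was at 176 ± 6.26 and 179 ± 5.04 and was not called. CTNS (chr17:3539762-3564836), the cystine exporter, was at 23.3, 25.7 and 26.1 RPM in the controls and 19.7, 18.1 and 21.9 in the knockdowns. It was lower in every knockdown (-0.33, SE 0.08, adjusted p = 0.0059 in limma).

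MCOLN1 (hg19 chr19:7587512-7598895), the calcium channel TRPML1, was at 21.4, 23.1 and 22.5 RPM in the controls and 18.6, 19.98 and 19.6 in the knockdowns. The groups did not overlap (log2 fold change -0.20, SE 0.06, adjusted p = 0.023 in limma), but after removal of the GC and length trend the value was -0.06 (adjusted p = 0.57). Leaving out control replicate 2 (-0.18, 0.077), control replicate 3 (-0.20, 0.082), knockdown replicate 1 (-0.17, 0.068) or knockdown replicate 3 (-0.21, 0.055) ended the call too. So did quantile normalization. The row of the table named CLN3 (ENSG00000261832.1) had 0 reads in all 6 libraries. For reads assigned to this row, that allows up to 0.0596 to 0.134 RPM a library (3 reads, counting error only). Nearly all of its span, 25351 bases, is shared on the same strand with another row. How shared reads were counted was not examined, so the 0 sets no bound on the gene's level. A second row for the overlapping ENSG00000188603.12, the identifier that the gene name table pairs with CLN3, was at 3.58, 3.93 and 3.95 RPM in the controls and 3.59, 3.07 and 2.81 in the knockdowns. These values overlap, with a change of -0.28 on the log2 scale (SE 0.13, adjusted p = 0.10 in limma). Listed spans of 25 of the 45 members overlap another gene, 19 of them on the opposite strand and 14 on the same strand, with some on both. The strand setting of the read counting is not given in the sources used here. The effect of the overlaps on the counts was not examined.

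The 45 members together took a larger share of the reads in the knockdowns. Their summed level was 6805, 6846 and 6789 RPM in the controls and 7795, 8183 and 8020.3 in the knockdowns, a 1.17-fold rise in the sum with no overlap. CTSB and PSAP supplied 57.7% of the added 1186 RPM, and without both the sum still went from 3402 ± 36.5 to 3904 ± 73.8 RPM (SD, n = 3 each). Per exon length the most abundant members in the controls were PSAP (343 RPKM), CTSB (309.8) and CTSL (109), followed by LAMP1 (58.7) and CTSD (53.4). Of the 9 members that rose by more than 0.5 on the log2 scale, LGMN, CTSS and FUCA1 were among the least abundant, at 1.43, 1.32 and 0.798 RPKM.

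The members were split at their median GC content to set them beside all genes of the same GC range. Their median GC content, over the longest transcript, was 52.1%. Of the 22 tested members above it, 7 were called higher and 5 lower, with a median log2 fold change of 0.06, while of the 6337 tested genes in that range 11.3% were called higher and 31.8% lower, with a median of -0.13. Of the 22 at or below it, 15 were called higher and 2 lower, with a median of 0.27, while of the 12209 tested genes in that range 20.8% were called higher and 19.6% lower, with a median of 0.00087. More higher and fewer lower calls in the GC-poorer range were thus a feature of all genes as well as of the members, and whether the members differed from other genes in this was not tested. The coefficient of variation between controls had a median of 6.07% in the GC-rich members and 3.56% in the others, and in the knockdowns of 6.19% and 3.69%. After removal of the GC and length trend within each library, 14 GC-rich members were called higher and 3 lower, and 13 and 2 of the others, and the shares of all genes were 19.6% and 26.1% in the GC-rich range and 18.0% and 25.3% in the other. Members called higher after that removal and not before were IDUA (log2 fold change 0.40), ARSA (0.27), SMPD1 (0.20), CTSZ (0.18), CTSD (0.15), TFE3 (0.14) and CTSA (0.13), each chosen here for that change.

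**Figure D3:**
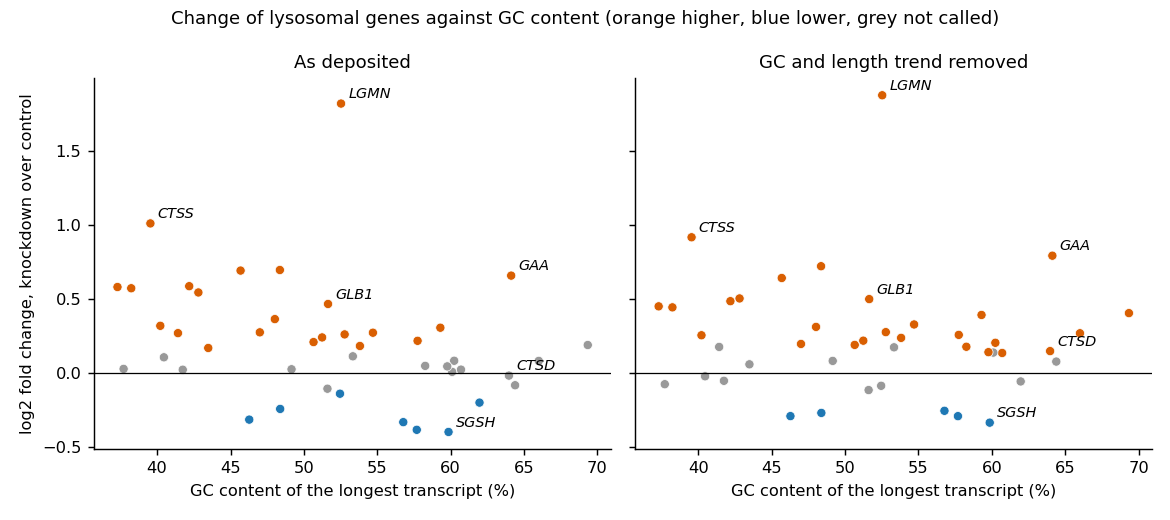
log2 fold change (knockdown over control) of each tested member against the GC content of its longest transcript in percent, from the deposited values (left) and after removal of the GC and length trend in each library (right). Orange points were called higher, blue lower and grey not called. LGMN, CTSS, GAA and GLB1 are orange and SGSH is blue in both panels, while CTSD turns from grey to orange.

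Other lysosome genes, 119 in 6 lists, were called higher above the background of all genes and lower near it. Of the 110 tested, 34 (30.9%) were called higher and 27 (24.5%) lower, with a median log2 fold change of 0.00. The shares were 17.5% and 23.5% of all genes tested, and 22.2% and 26.4% of protein-coding genes, the closer background. The difference between these lists and the members was not tested. The other hydrolases were called higher in 8 of 26 and lower in 5, led by ACP5, the tartrate-resistant acid phosphatase (2.11, 1.53 and 2.11 RPM in the controls, 3.14, 4.61 and 4.06 in the knockdowns, 1.03), and by NAAA, an amidase of lipid amides (12.4 ± 0.737 to 8.33 ± 0.307 RPM, SD, n = 3 each, -0.57).

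Genes of the proton pump were mostly called lower. Of 16 V-ATPase genes tested, 9 were called lower and 2 higher, with a median log2 fold change of -0.16. Over all genes tested 23.5% were called lower and 17.5% higher, and over protein-coding genes 26.4% and 22.2%. ATP6V0E2, a subunit of the membrane sector, was at 28.3, 26.4 and 29.1 RPM in the controls and 16.5, 17.3 and 17.3 in the knockdowns (-0.71, SE 0.06, adjusted p = 8.9e-06 in limma). The 2 that rose, ATP6AP1 (0.25) and ATP6AP2 (0.20), are the pump's accessory proteins. Without control replicate 3 the pump genes called lower were 5, with the eBayes fit untrended 6, and after removal of the GC and length trend 12.

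Genes that tag, sort and activate the enzymes were called higher in 9 of 17 and lower in 4, with a median of 0.22. NAGPA, which uncovers the mannose 6-phosphate tag, rose 1.499-fold (8.65 ± 0.349 to 12.97 ± 0.866 RPM, SD, n = 3 each, log2 fold change 0.58). GNPTAB, which starts the tag (0.50), M6PR (0.34) and IGF2R (0.31), the receptors of the tag, and SUMF1, which activates sulfatases (0.41), were also called higher. AP1M1, a subunit of the clathrin adaptor AP-1, fell from 83.1 ± 6.59 to 50.3 ± 2.59 RPM (-0.72, SE 0.06, adjusted p = 1.1e-05 in limma). GGA3 (-0.49), VPS29 (-0.37) and VPS35 (-0.21), also on the list of sorting genes, were called lower too.

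Other lysosomal membrane proteins were called higher in 8 of 25 and lower in 5, with a median of -0.06. LAPTM5 had the largest fitted rise (2.36) on only 4 to 28 reads a library, and CLCN7, the chloride-proton exchanger, fell from 55.8 ± 2.31 to 38.1 ± 0.679 RPM (SD, n = 3 each, -0.55). Regulators of TFEB were called higher in 7 of 21 and lower in 2, led by the kinase GSK3B (0.34) and by LAMTOR5 (-0.23), a part of the Ragulator scaffold of mTORC1. The 7 became 3 with the eBayes fit untrended, 4 with the replicate block and 4 without control replicate 3. Of the cysteine cathepsin inhibitors 5 were tested, with 0 called higher and 2 lower, CST4 (-0.57) and CSTB (-0.40).

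**Figure D4:**
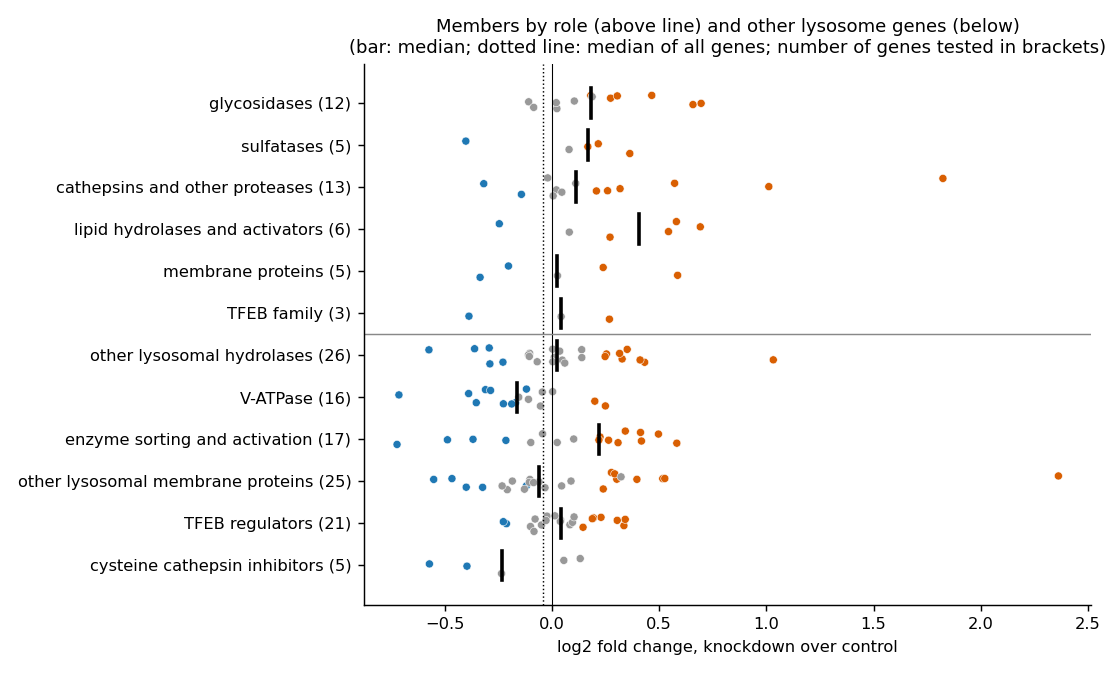
log2 fold change (knockdown over control) of each tested gene in the 6 roles of the 45 lysosomal genes (above the line) and in the 6 other lysosome lists (below), with the number tested in brackets. Black bars are medians, the dotted line is the median of all genes tested, and orange, blue and grey mark higher, lower and no call. The lipid hydrolases have a median of 0.41 and the V-ATPase genes one of -0.16.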

How the data were processed

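PolyA RNA of 6 libraries (3 siSCR, 3 sin-lncRNA knockdown) was sequenced. The authors deposited 1 table of log2 values per gene. Bowtie2, featureCounts and hg19 are listed in the submitters' processing notes, without roles or versions. The annotation release, the strand setting and the normalization are not given in the sources used here. Undoing an offset of 0.5 reads gave whole reads within 0.0001 for 100.0% of the values, and RPM are these reads scaled to an effective library size of 1000000. The deposited log2 values were fitted with limma 3.58.1 in R 4.3.3 (eBayes with intensity trend, two-sided) over the 19048 genes with a mean of at least 10 normalized reads, with Benjamini-Hochberg adjustment and calls under 0.05. The design allowed for linear or log2 values, and the log2 branch was used. The script was tested on simulated data. Exon length and GC content came from GENCODE 29 and promoters from RefSeq, both GRCh38, matched by identifier or symbol without coordinate conversion; gene spans are the table's own. Values in every library are given for GLB1, the TFEB family, the 8 largest called rises and all 7 called falls (up to 8 were to be named), besides CTSB, PSAP, CTSD and the second CLN3 row, which were added after their values were seen. From each other lysosome list the largest called rise and fall are named, with further members chosen after their values were seen. The members and lists were chosen with earlier results of these data known.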

Additional observations from a re-analysis of the deposited data

How the results depend on the processing

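Over 18 other fits the genes called numbered 5803 to 8182, the members called 21 to 32, the members' median log2 fold change was 0.14 to 0.19, and the other lysosome genes called were 49 to 64. Leaving out 1 library gave 21 to 28 members called, 17 to 22 higher and 4 to 7 lower, with 4 lower without control replicate 3 or knockdown replicate 1. A replicate block in the fit gave 6454 genes, 25 members (20 higher, 5 lower) and 53 other lysosome genes called. The deviations of same-numbered libraries correlated at -0.149, -0.183 and 0.0655. In replicates 1 and 2 the GC trends ran in opposite directions in controls and knockdowns (rho 0.349 and -0.361, -0.309 and 0.277). These correlations therefore cannot decide whether the numbers pair the libraries, and the main fit left the numbers out. No called member changed sign in any fit, and 10 members that were not called did. After removal of the GC and length trend these were GALC (-0.055), NAGLU (0.076), MANBA (-0.024), CTSD (0.15) and LAMP2 (-0.078), and with libraries thinned to the smallest total CTSH (-0.10). With 1 library left out the values spanned 0 for GLA (-0.0057 to 0.080), GALC (-0.020 to 0.050), ARSA (-0.027 to 0.20), CTSA (-0.0091 to 0.061), CTSD (-0.12 to 0.069), CTSF (-0.050 to 0.079), CTSH (-0.0024 to 0.19) and LAMP2 (-0.0031 to 0.049). The cause of these changes was not tested. Depth limits members with few reads, such as CTSH (26 to 56 reads a library) and FUCA1 (43 to 83). The row named CLN3 had 0 reads, and it shares nearly all of its span with a second row.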
